A study of Homo sapiens with 4 samples.

Results

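Fibroblast growth factors are secreted or intracellular signalling proteins, and most of the secreted ones bind receptor tyrosine kinases (FGFR1 to FGFR4) together with heparan sulfate at the cell surface. Receptor binding feeds the RAS-MAPK and PI3K-AKT relays, and Sprouty and dual-specificity phosphatase proteins damp the signal. FGF3, FGF4 and FGF8 are best known as embryonic ligands, FGF3 and FGF4 lie close together in a stretch of chromosome arm 11q that is amplified in some breast tumours, FGF20 is a secreted ligand of the FGF9 subfamily, FGF12 stays inside the cell and binds sodium channels, and FGFR4 is a receptor.

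These 6 genes were taken from a human cancer array by the gene name printed for each spot. The rule uses no measured value, but the set of genes was chosen with earlier results of these data known. They were 6 of 1768 named genes on the array, 6 of 1856 gene probes and 12 of 3786 gene spots on each array, since each was printed as 2 spots. Cultures of the triple-negative breast cancer cell line MDA-MB-231 were exposed to recombinant human LRG1 (rhLRG1) at 100 ng/mL for 24 h or kept in RPMI medium without it, and the series describes the replicates as separate cultures. The rhLRG1-treated and the untreated group held 2 samples each, replicates 2 and 3. A treated and an untreated sample of one number shared one 2-colour array, with Alexa 647 on the treated and Alexa 555 on the untreated sample on both arrays, so dye and treatment cannot be told apart in any ratio. The median foreground over the gene spots was 397 in rhLRG1-treated and 508 in untreated cells of replicate 2, and 319 in rhLRG1-treated and 425 in untreated cells of replicate 3. Of the hormone receptor and luminal markers that this line should lack, PGR and ERBB2 were on the array, and both lay above the local background plus 2 SD at every untreated spot, as did all 4 mesenchymal, 3 leukocyte, 2 endothelial and 2 fibroblast markers measured. Every one of the 1856 gene probes passed this mark in a channel of both arrays, so it does not separate genes that the cells express.

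On replicate 3, 2 adjacent spots for other genes had a foreground below their local background. With them in the background correction, as in the design followed here, the 10th percentile of the corrected rhLRG1 signal was 219 on replicate 3, against 83.7 on replicate 2, and the SD of probe ratios was 0.12 on replicate 3, against 0.21 on replicate 2. Without these 2 spots the percentile was 74.9 and the SD 0.21 on replicate 3. Leaving them out was tried after the data and its effect on the calls were seen, so it is reported beside the results as an alternative.

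FGF3 had a lower signal in rhLRG1-treated than in untreated cells at both spots on both arrays. After subtraction of the local background, its first spot gave 66.6 scanner units in rhLRG1-treated and 307 in untreated cells of replicate 2, and 50.2 in rhLRG1-treated and 310 in untreated cells of replicate 3. Its second spot gave 137 in rhLRG1-treated and 265 in untreated cells of replicate 2, and 158 in rhLRG1-treated and 320 in untreated cells of replicate 3. The 4 treated values lay below the 4 untreated ones, and the treated values differed more between the spots than the untreated values did. The array as a whole leaned the same way before normalization. Its median signal over the gene spots was 327 in rhLRG1-treated and 465 in untreated cells of replicate 2. On replicate 3 it was 248 in rhLRG1-treated and 376 in untreated cells. How many other probes separated the groups in this way was not counted.

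FGF20 was likewise lower in rhLRG1-treated cells at both spots on both arrays. Its first spot gave 42.6 in rhLRG1-treated and 204 in untreated cells of replicate 2, and 38.8 in rhLRG1-treated and 199 in untreated cells of replicate 3. Its second spot gave 61.1 in rhLRG1-treated and 164 in untreated cells of replicate 2, and 55.6 in rhLRG1-treated and 185 in untreated cells of replicate 3. The groups did not overlap at either spot, in the direction in which the median signal of the array also lay. The share of all probes that separated so was not counted.

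FGF4 had a signal far above its background in both channels. Its first spot gave 423 in rhLRG1-treated and 684 in untreated cells of replicate 2, and 321 in rhLRG1-treated and 540 in untreated cells of replicate 3. Its second spot gave 702 in rhLRG1-treated and 1043 in untreated cells of replicate 2, and 532 in rhLRG1-treated and 706 in untreated cells of replicate 3. Within each spot and array the treated value was lower, while over all spots the groups overlapped.

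FGFR4, the receptor, gave 51.1 in rhLRG1-treated and 183 in untreated cells at its first spot of replicate 2, and 44.1 in rhLRG1-treated and 141 in untreated cells at that of replicate 3. Its second spot gave 119 in rhLRG1-treated and 311 in untreated cells of replicate 2, and 86.9 in rhLRG1-treated and 244 in untreated cells of replicate 3. The treated values again lay below the untreated ones, as the median signal of the array did. For FGFR4 too, the share of all probes that separated so was not counted.

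FGF8 lay close to the background in both channels. Its first spot gave 10.9 in rhLRG1-treated and 24.6 in untreated cells of replicate 2, and 19.3 in rhLRG1-treated and 24.6 in untreated cells of replicate 3. Its second spot gave 5.00 in rhLRG1-treated and 5.17 in untreated cells of replicate 2, and 2.73 in rhLRG1-treated and 5.69 in untreated cells of replicate 3. The treated value of the second spot was 1.67 and 1.18 background SDs above the background on replicates 2 and 3. Before any subtraction the order was the other way: the foreground of the first spot was 81.2 in rhLRG1-treated and 69.6 in untreated cells of replicate 2, on local backgrounds of 70.2 in rhLRG1-treated and 45.0 in untreated cells. All 4 FGF8 spots were brighter in the treated channel as scanned and dimmer in it after subtraction.

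FGF12, the intracellular member, differed between the arrays in direction at its first spot. That spot gave 23.7 in rhLRG1-treated and 67.6 in untreated cells of replicate 2, and 8.70 in rhLRG1-treated and 1.84 in untreated cells of replicate 3. Its second spot gave 25.5 in rhLRG1-treated and 71.5 in untreated cells of replicate 2, and 10.4 in rhLRG1-treated and 15.7 in untreated cells of replicate 3. The untreated value of the first spot of replicate 3 was 1.18 background SDs above the background, and this was the only one of the 24 pairs of member values in which the treated signal was the higher one. The 24 pairs come from 6 probes, and the median signal of the array was lower in treated cells too. The share of all gene spots with a lower treated signal was not counted.

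**Figure D1:**
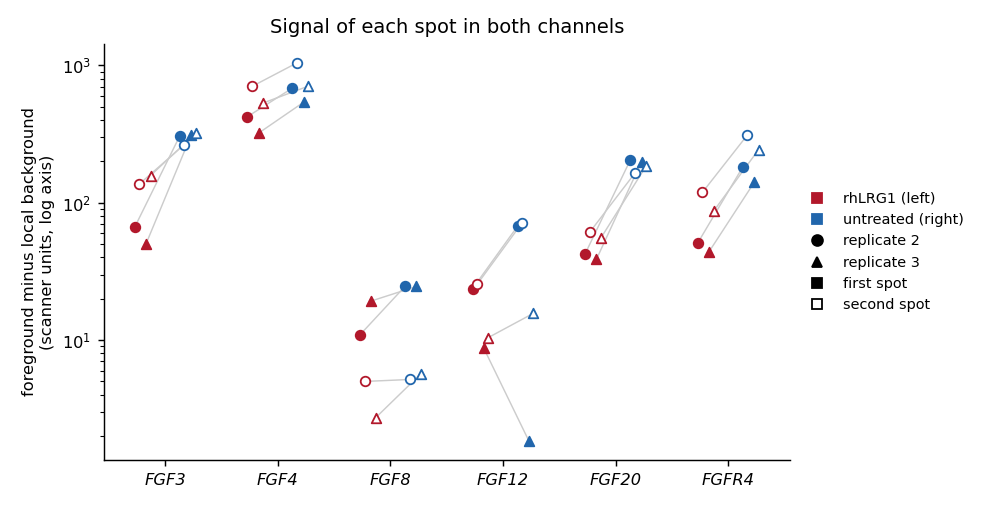
Foreground minus local background (scanner units, log axis) of every member spot, rhLRG1-treated (left of each gene) and untreated (right), with circles for replicate 2, triangles for replicate 3, filled for the first and open for the second spot; lines join the 2 channels of a spot. All lines but that of the first FGF12 spot of replicate 3 lead to a higher untreated value, and the points of FGF8 run from 2.73 to 24.6.

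The whole array leaned toward the untreated channel before normalization, with a median log2 ratio (rhLRG1 over untreated) of -0.42 on replicate 2 and -0.21 on replicate 3, so the member ratios were read after loess normalization, which sets each ratio against spots of like brightness. After it, 8 of the 24 member spot ratios lay above 0 and 16 below. By probe, 4 of the 6 members had a mean ratio below 0, as did 51.9% of all gene probes. FGF3 had a mean log2 ratio of -0.41 ± 0.065, which is 1.33-fold lower in rhLRG1-treated cells, with -0.49 on replicate 2 and -0.34 on replicate 3. FGF20 averaged -0.25 ± 0.069 (-0.34 and -0.15 on replicates 2 and 3), FGFR4 -0.24 ± 0.086 (-0.39 and -0.09) and FGF4 -0.18 ± 0.063 (-0.24 and -0.12). FGF8 averaged 0.14 ± 0.066 (0.22 and 0.06) and FGF12 0.06 ± 0.057 (0.07 and 0.06). The errors are moderated SEs from limma (n = 2 arrays), which borrow the spread of all probes. Both arrays gave the same sign for 6 of 6 members and for 75.3% of all gene probes, and the median ratio was -0.21 for the members and -0.01 for all probes.

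**Figure D2:**
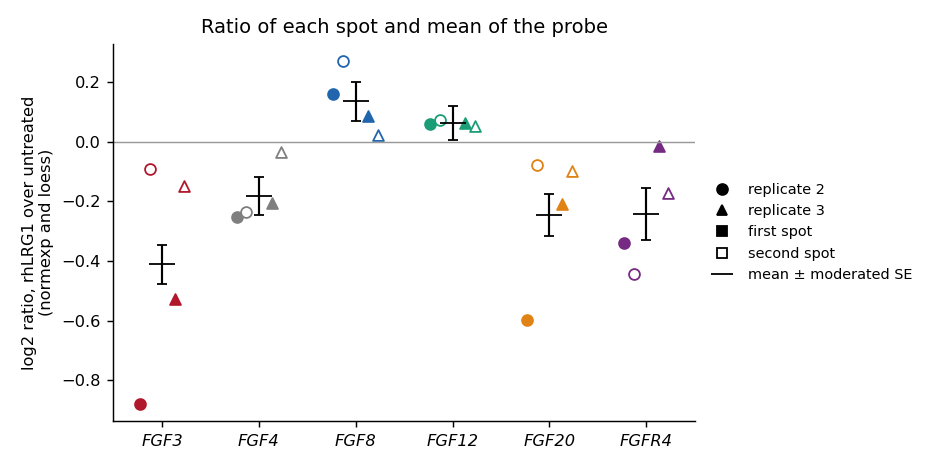
Log2 ratio of rhLRG1-treated over untreated cells after normexp and loess for each member spot (circles replicate 2, triangles replicate 3, filled first and open second spot), with the probe's mean and its moderated SE as a black bar. The first spot lies well below the second for FGF3 on both replicates and for FGF20 on replicate 2, and FGF8 and FGF12 lie above 0.

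None of the 6 members passed limma at a Benjamini-Hochberg adjusted p under 0.05 over all gene probes, and neither did any other probe (0%). The adjusted p was 0.143 for FGF3, 0.151 for FGF20, 0.179 for FGF4, 0.183 for FGFR4, 0.291 for FGF8 and 0.54 for FGF12, and 4 members were among the 433 probes with an unadjusted p under 0.05. Without the 2 spots below background on replicate 3, limma passed FGF3 (-0.56, adjusted p = 0.0129), FGF20 (-0.37, adjusted p = 0.0143) and FGFR4 (-0.29, adjusted p = 0.0391) as lower, where 10.8% of all probes passed as lower, and FGF8 (0.24, adjusted p = 0.0308) as higher, where 10.5% passed as higher. The same 4 genes passed where the background was not corrected, with FGF4 beside them, and where it was subtracted, which also drops spots below background. Of all 1856 gene probes, 432 passed where the background was not corrected and 422 where it was subtracted. With normexp on all spots and no normalization, FGF3, FGF20 and FGFR4 passed, as did 503 of all gene probes. The cause of these changes was not tested.

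By the Z ratio, the rule of the study's methods, 4 of 6 members lay beyond 1.5, where 13.4% of all gene probes did. For it, the log10 intensities of each channel were centred on their mean over all gene probes and scaled. The Z ratio is the difference of these values between treated and untreated cells over the SD of all such differences, and it carries no p-value. A call is thus relative to the mean of the channel. FGF8 was called higher at 2.77, where 6.73% of all probes were called higher. Its log2 ratio before loess was below 0, at -0.10 on replicate 2 and -0.09 on replicate 3. FGF3 at -2.59, FGF20 at -1.91 and FGFR4 at -1.65 were called lower, where 6.63% were called lower. FGF4 at -0.845 and FGF12 at 1.10 were not called. With 6 members, chosen with earlier results known, the counts are given as a description only. The call of FGF20 was lost without replicate 2 (-1.44), as was that of FGFR4 (-0.886), and FGF12 was called without replicate 2 (1.63) and without the 2 spots below background (2.44). The Z ratio of FGF8 was 3.15 without replicate 3 and 1.53 without replicate 2, and its call was lost with the authors' net intensities (0.472) and on loess-normalized channels (0.951).

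The Z ratio was computed on channels that were not loess-normalized, and how often it called a probe changed with brightness. With the probes cut into 10 groups by brightness, FGF8 and FGF12 lay in the dimmest group, where 23.1% of 186 probes were called higher and 6.45% lower. FGF20 lay in the next group, where 23.7% were called lower and 4.84% higher, and FGFR4 in the one after, with 11.9% lower. FGF3 lay in group 4, with 9.68% lower and 6.99% higher, and FGF4 in group 7, with 0.541% lower. The 3 called members of the dimmest groups, FGF8, FGF20 and FGFR4, had the direction that was the commoner one among probes of their brightness. On loess-normalized channels FGF8 was at 0.951 and FGFR4 at -1.49, no longer called, while FGF3 at -2.72 and FGF20 at -1.56 were. The part of brightness in the calls was not tested.

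Over all gene spots, brightness and ratio had a Spearman correlation of 0.751 on replicate 2 and 0.520 on replicate 3 before loess, and of 0.06 and 0.02 after it (3786 spots that share an array, its dyes and its scan). Over the 12 member spots of an array it was -0.27 on replicate 2 and -0.57 on replicate 3 before loess, and -0.63 and -0.67 after it, as a description of spots of which pairs share a probe. The value that loess took off a member ratio lay between -0.86 and -0.65 for the FGFR4 spots of replicate 2 and between -0.30 and -0.28 for those of replicate 3. For FGF8 the mean log2 ratio was -0.10 without normalization (adjusted p = 0.688 by limma) and for FGF12 -0.37 (adjusted p = 0.123), so the sign of both turned with this step, and that of FGF12 also with median centring (-0.06). FGF3, FGF4, FGF20 and FGFR4 kept a ratio below 0 under each alternative run on the log2 ratio.

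**Figure D3:**
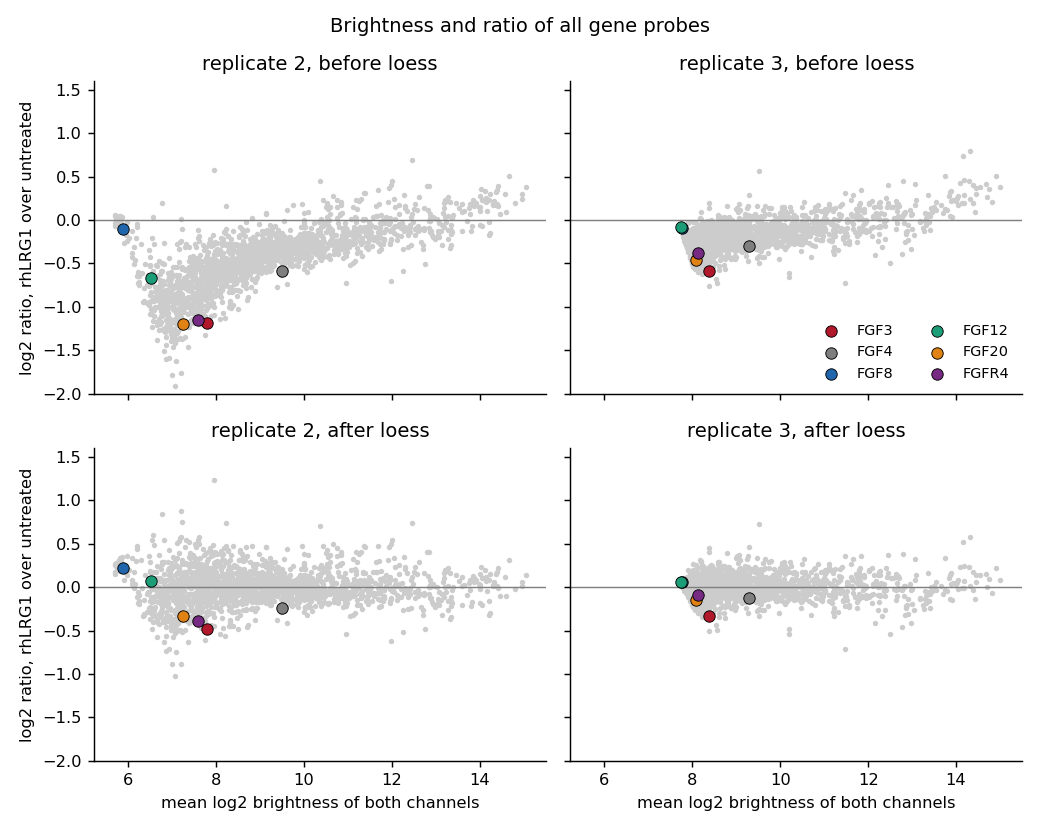
Log2 ratio (rhLRG1 over untreated) against the mean log2 brightness of both channels for all 1856 gene probes (grey) and the members (coloured), before loess (top) and after it (bottom), on replicate 2 (left) and replicate 3 (right). FGF8 and FGF12 lie at the dim end on both arrays (their points nearly coincide on replicate 3), and the dim end of replicate 3 is narrower than that of replicate 2.

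The spots of one probe did not give one ratio for FGF3. Its first spot had a log2 ratio of -0.88 on replicate 2 and -0.53 on replicate 3, and its second spot -0.09 and -0.15. The gap of -0.79 on replicate 2 exceeded that of 99.8% of the 1849 probes with 2 spots, and the gap of -0.38 on replicate 3 that of 99.7%. For FGF20 the first spot had -0.60 on replicate 2 and -0.21 on replicate 3 and the second -0.08 and -0.10, with gaps larger than those of 99.4% and 82.5% of the probes. The gaps of the other members on replicate 2 ranged from -0.11 for FGF8 to 0.10 for FGFR4. On replicate 3 the gaps of FGF4 (-0.17, larger than those of 93.9% of the probes) and FGFR4 (0.16, 92.8%) exceeded that of FGF20 (-0.11). With all spots in the background correction, the gap of FGF20 thus stood out on replicate 2 only. Without the 2 spots below background, the first and second spots of replicate 3 were at -0.56 and -0.25 for FGF20. They were at -0.24 and -0.04 for FGF4, and at -0.04 and -0.34 for FGFR4. From the second spot alone, the Z ratio of FGF3 was -0.721 and that of FGF20 -0.916, neither called, and from the first spot alone -4.26 and -2.76.

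The first spots of FGF3 and FGF20 were printed in the same place, row 5 and column 16, of different print blocks, and their second spots both in row 10 of that column. Of the 160 places in a block, row 5 of column 16 had the lowest median ratio over the 24 blocks on both arrays, -0.30 on replicate 2 and -0.15 on replicate 3, where the next lowest places had -0.19 and -0.09. Among the other 23 spots printed there beside that of FGF3, 22 lay below 0 on each array. The first FGF3 spot was lower than all but 1 of them on replicate 2 and than all on replicate 3, whereas 3 and 8 of the others were lower than the first FGF20 spot on replicates 2 and 3. After each spot was set against the median of its place, an alternative added after the data were seen, FGF3 averaged -0.28 (adjusted p = 0.158 by limma) with a Z ratio of -1.95, and FGF20 -0.12 (adjusted p = 0.325 by limma) with a Z ratio of -1.23. A first version of this step, on unnormalized channels, gave Z ratios of -0.896 for FGF3 and -0.413 for FGF20. With all spots in the background correction, no probe passed limma either with or without the centring of loess ratios. Without the 2 spots below background, centred FGF3 averaged -0.38 (adjusted p = 0.00695 by limma) and FGF20 -0.19 (adjusted p = 0.0533 by limma). The first spot of FGF4 was printed in row 5 of column 13, the next lowest place on replicate 2 (-0.19), where the median on replicate 3 was 0.02. The spots of FGF8 were also printed in column 16. The median of the first one's place, in row 3, was 0.11 on replicate 2 and 0.05 on replicate 3. That of the second one's place, in row 8, was -0.05 and 0.00. With the centring of loess ratios, FGF8 averaged 0.11 (adjusted p = 0.392 by limma) with a Z ratio of 2.71. The part of the place in the ratios of FGF3, FGF4, FGF8 and FGF20 was not tested.

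**Figure D4:**
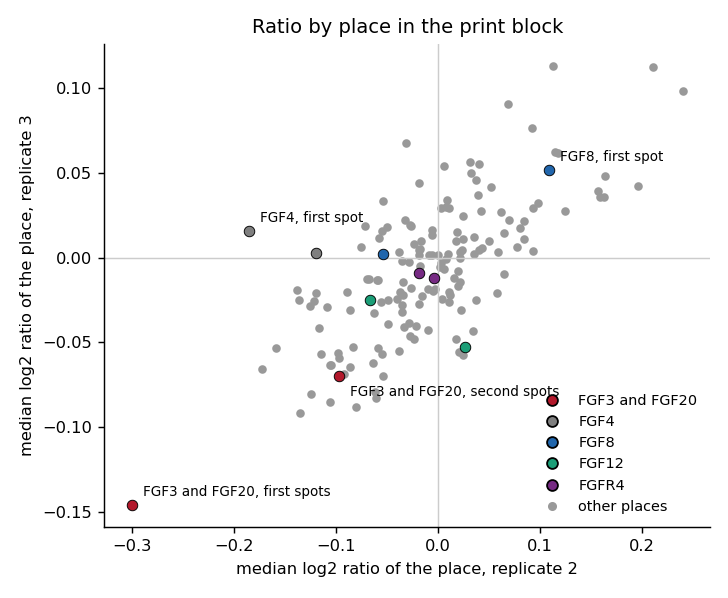
Median log2 ratio (rhLRG1 over untreated, after loess) of the gene spots in each of the 160 places of a print block, replicate 2 on the horizontal and replicate 3 on the vertical axis, with the places of the member spots coloured. The place shared by the first spots of FGF3 and FGF20 is lowest on both axes.

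**Figure D5:**
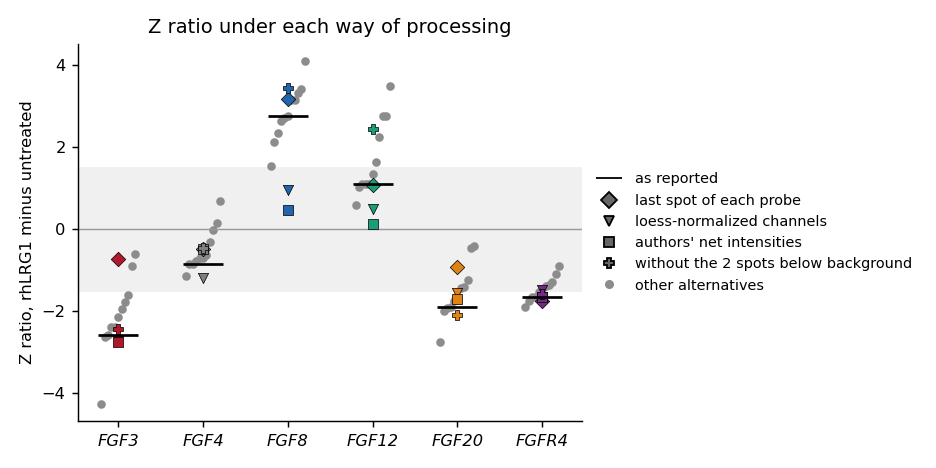
Z ratio (rhLRG1 minus untreated) of each member as reported (black bar) and under the alternatives run (points), with the grey band marking values within 1.5 of 0. The values of FGF3 run from -4.26 to -0.605 and those of FGF8 from 0.472 to 4.10.

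By Euclidean distance over the 4 loess-normalized channel values on the log2 scale, the named probes most like each member were NAPSA (0.12) and CXCL12 (0.17) for FGF3, TEK (0.19) and KLHL4 (0.20) for FGF4, ZNF711 (0.07) and NDP (0.08) for FGF8, PPP2R1B (0.11) and BPHL (0.13) for FGF12, CD6 (0.07) and SERPINB3 (0.08) for FGF20, and CCN4 and VPS54 (both 0.14) for FGFR4. This measure takes in the probe's brightness as well as its ratio.

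Of 69 other genes of the pathway that were listed, 25 were on the array, with 26 probes. None passed limma in either direction (0 of 26 probes), and neither did any of the 1856 gene probes (0%). How many of the 26 pass without the 2 spots below background was not counted. By the Z ratio, 2 were called higher and 0 lower, where 6.73% of all probes were called higher and 6.63% lower. The count called higher is near that share. The median log2 ratio of the 26 probes was -0.03. Of the ligands and receptors, FGF2 had a mean log2 ratio of 0.00, and FGFR1, FGFR2 and FGFR3, the other signalling receptors, had 0.01 each, with Z ratios between -0.00593 and 0.298. In the relay, the GTPase NRAS was called higher (Z ratio 1.55, mean log2 ratio 0.29, adjusted p = 0.143 by limma). Among the surface partners, 1 of the probes of CDH2, N-cadherin, which can bind FGFR1, was called higher (Z ratio 2.34, mean log2 ratio 0.38, adjusted p = 0.143 by limma), and the other was not (-0.365 and -0.03). DUSP6, a feedback phosphatase, had a mean log2 ratio of -0.08 (adjusted p = 0.491 by limma). None of the 7 measured targets was called, and of the listed neighbours of FGF3 and FGF4 on 11q, CTTN had 0.15 and FADD 0.07, neither called.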

How the data were processed

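RNA of MDA-MB-231 cells was labelled and hybridised to 2-colour cancer arrays, of which replicates 2 and 3 were analysed. Per the file headers, the authors deposited for each spot a foreground intensity, a local background intensity with its SD, and a net intensity; the deposited ratio of net intensities was not used. The methods name genArise and a Z score. Here the scanned intensities were corrected by normexp (offset 50), normalized by loess within each array with the 54 control spots at weight 0, averaged per probe and tested with limma (version 3.58.1, run under R 4.3.3). Adjusted p-values follow Benjamini and Hochberg over 1856 probes. The Z ratio used the corrected log10 channels before loess, with a threshold of 1.5. The replicate number pairs samples through their shared array (correlation of deviations 0.971), so the ratio is the paired value. The precision is limited by 2 arrays. Gene names came from RefSeq of GRCh38.p14, 1701 probes by accession, 60 by symbol, 16 by synonym, 4 as in the file, and 75 have none. The files name no build for the probes, so no coordinates are given.

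All 6 members are named, with the 2 nearest probes of each and listed pathway genes with a Z ratio beyond 1.5; FGF2, FGFR1, FGFR2, FGFR3, DUSP6, CTTN and FADD were named after their values were seen. The members and lists were chosen with earlier results of these data known. The correction used all spots, as designed. Leaving out 2 spots of replicate 3 below their background, and centring by place in the print block in 2 versions, were added after the data were seen. The exclusion changes the limma calls and was judged with that effect known, so it is given as an alternative and not as the main setting. The calculations were also run on simulated data, in which both channels were built from the untreated signal with known changes in the treated one. These data held no trend of the ratio with brightness and no difference by place. They did not keep the foregrounds of the 2 spots below background either, so that run does not bear on these points.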

Additional observations from a re-analysis of the deposited data

How the results depend on the processing

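The limits are 2 arrays of one dye orientation and signals near background for FGF8 on both arrays and for FGF12 on replicate 3. Alternatives added after the data were seen are the exclusion of the 2 spots of replicate 3 and the centring by place. The cause of each change below was not tested.

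Members passing limma numbered 0 as reported. They numbered 5 where no background was corrected, 4 where it was subtracted and 3 with the authors' net intensities, whose ratios were not loess-normalized. They numbered 3 with normexp and no normalization, 4 without the 2 spots and 3 with centring by place without them. All gene probes passing numbered 0 as reported, and under these settings 432, 422, 603, 503, 396 and 413, with 1 from the first and 30 from the last spot of each probe. With no replicate block (the channels as separate samples) 0 members and 0 probes passed, with an adjusted p of 1.00 for each member. No background correction gave log2 ratios of -0.52 for FGF3, -0.19 for FGF4, 0.20 for FGF8, -0.37 for FGF20 and -0.28 for FGFR4, which passed. Plain subtraction gave -0.74, 1.02, -0.53 and -0.37 for FGF3, FGF8, FGF20 and FGFR4, which passed, as did -0.76, -0.47 and -0.46 from the net intensities and -0.89, -0.83 and -0.77 with no normalization for FGF3, FGF20 and FGFR4. With no normalization FGF8 turned to -0.10 and FGF12 to -0.37, and FGF12 to -0.064 with median centring. Without the 2 spots FGF3, FGF8, FGF20 and FGFR4 passed at -0.56, 0.24, -0.37 and -0.29, and with centring by place as well FGF3, FGF8 and FGFR4 at -0.38, 0.20 and -0.29.

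Members called by the Z ratio numbered 4 as reported (248 of all probes), 2 from the last spot of each probe (244), 2 on loess-normalized channels (238), 2 at a threshold of 2 (106), and 1 with centring by place on unnormalized channels (239), or 2 without the 2 spots as well (232). They numbered 5 where no background was corrected (190) and 5 without the 2 spots (217), and 3 or 4 under the other settings. From the last spot FGF3 was at -0.721 and FGF20 at -0.916; from the first, FGFR4 at -1.46. FGF8 was at 0.472 with the net intensities and 0.951 on loess-normalized channels, where FGFR4 was at -1.49. FGFR4 was at -1.10 with plain subtraction and -1.39 with a Z ratio per array, and a threshold of 2 excluded FGFR4 (-1.65) and FGF20 (-1.91). FGF12 was called at 2.77 where no background was corrected, 3.48 where it was subtracted, 2.44 without the 2 spots and 2.75 with centring by place as well. Centring by place put FGF20 at -1.23, and at -1.42 without the 2 spots. On unnormalized channels it put FGF3 at -0.896, FGF4 at 0.139, FGF20 at -0.413 and FGFR4 at -1.35, and without the 2 spots -0.605, 0.699, -0.452 and -1.28, with FGF12 at 2.26. With one replicate left out, the Z ratio ranged from 0.579 to 1.63 for FGF12, from -1.92 to -1.44 for FGF20 and from -1.90 to -0.886 for FGFR4.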
